A study of Mus musculus with 5 samples.

Results

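The genes described here are 7 of the 31053 in the count matrices, chosen by symbol: the chemokines Ccl2, Ccl7, Ccl8 and Ccl12, the receptor Ccr2, the chemokine Cx3cl1 and its receptor Cx3cr1. They were followed through single-cell RNA sequencing of ventral skin from C57BL/6J mice at postnatal day 28, in which cell barcodes and unique molecular identifiers (UMIs, one per captured transcript) were counted from transcript 3′ ends. The tested animals carried Prx1Cre and floxed alleles of Ikkb (Ikkb_cKO, 3 libraries), and the others were wild type (WT, 2 libraries). The labels name neither Cre nor floxed alleles in WT, so the Cre itself has no control. Expression of this Cre follows a Prrx1 enhancer that is active in mesenchyme of the limbs and trunk, and the floxed gene, Ikbkb in current nomenclature, encodes a kinase that releases NF-κB from its inhibitors. A library pooled 2 mice, and the protocol's sort removed debris, DAPI-positive dead cells and aggregates, with no gate for a cell type.

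Chemokines are small secreted proteins that direct the movement of white blood cells. Ccl2, Ccl7 and Ccl12 bind Ccr2 and draw Ly6c-high monocytes from bone marrow and blood into tissue, where these can become macrophages, while mouse Ccl8 is best known as a ligand of Ccr8. Stromal cells and macrophages are textbook sources of these ligands, and NF-κB is a known activator of Ccl2. Cx3cl1 is made as a membrane-bound protein that can be cut free, and its receptor Cx3cr1 marks patrolling monocytes, some tissue macrophages and some cytotoxic lymphocytes.

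In the GENCODE annotation of GRCm38, Ccl2 lies on chr11:82035571-82037453, Ccl7 on chr11:82045712-82047525, Ccl12 on chr11:82101845-82103400 and Ccl8 on chr11:82115185-82116799, all on the plus strand, with Ccl11 between Ccl7 and Ccl12. Ccr2 (chr9:124101950-124113557, plus strand) and Cx3cr1 (chr9:119901616-120069879, minus strand) share chromosome 9, and Cx3cl1 lies on chr8:94772009-94782427 (plus strand). The promoters of Ccl12 and Ccl8 are shown because these neighbouring genes moved in opposite directions in macrophage-like cells. Each runs from 250 bases before to 50 bases after the RefSeq start (GRCm38.p6), at chr11:82101595-82101894 for Ccl12 and chr11:82114935-82115234 for Ccl8, on the plus strand. Capitals mark the letters TATAAA.
Ccl12: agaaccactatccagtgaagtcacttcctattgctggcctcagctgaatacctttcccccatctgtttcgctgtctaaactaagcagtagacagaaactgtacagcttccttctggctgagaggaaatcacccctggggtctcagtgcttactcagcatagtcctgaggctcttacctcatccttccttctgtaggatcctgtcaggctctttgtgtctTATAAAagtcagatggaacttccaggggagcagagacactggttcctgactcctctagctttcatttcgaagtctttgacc
Ccl8: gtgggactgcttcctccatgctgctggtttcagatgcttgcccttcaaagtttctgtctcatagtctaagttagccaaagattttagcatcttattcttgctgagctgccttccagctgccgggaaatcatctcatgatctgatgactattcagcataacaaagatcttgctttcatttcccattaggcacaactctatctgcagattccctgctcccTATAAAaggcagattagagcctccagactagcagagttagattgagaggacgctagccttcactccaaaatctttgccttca

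Promoters of 5 of the 7 genes were in the RefSeq table (Ccl8, Ccl12, Ccr2, Cx3cl1 and Cx3cr1), while Ccl2 and Ccl7 were not. TATAAA, searched on the gene's strand, began at base 220 of the Ccl12 window, at base 219 of the Ccl8 window and at base 245 of the Cx3cl1 window. It stood in 8.32% of the table's 32851 promoters. None of the 5 windows held a match on either strand to the κB motif (8.46% of all promoters), to the interferon-stimulated response element (3.44%) or to TGANTCA (7.81%), which says only that these letters are not in these windows.

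The 5 libraries held 945 to 2523 barcodes in Ikkb_cKO and 3206 to 3393 in WT, with 2163166 to 9738296 UMIs and 14659158 to 16773096 UMIs in total. Of 11084 barcodes 10390 were kept, and 10 classes were named from marker genes, with the 7 genes left out of the clustering. Pairs of libraries shared 0 to 17 barcodes. Fibroblast-like cells had a median of 1554 to 2451 UMIs in the Ikkb_cKO libraries and of 4804 to 5234 in the WT libraries. Levels below are counts per 1000000 of a class's own UMIs (CPM). Only the fibroblast-like (530, 493 and 871 Ikkb_cKO cells, 1794 and 1911 WT cells), myeloid-like (133, 162 and 543, against 805 and 858) and lymphocyte-like classes (230, 178 and 511, against 129 and 113) had 20 or more cells in every library and were tested. Ikbkb stood at 15.7 to 20.5 CPM in Ikkb_cKO and 14.1 to 17.8 CPM in WT fibroblast-like cells. Which exons were floxed is not stated in the labels, and 3′ counts read the transcript's end, so this level is no check of the deletion. The labels do not say that the libraries were prepared separately, so p-values cover only the spread among these libraries, part of which may be technical.

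Ikkb_cKO libraries 1 and 2 resembled each other more than either resembled library 3. The chi-square of their summed fibroblast-like counts was 1.44 per degree of freedom between libraries 1 and 2, but 12.6 and 13.3 against library 3, and it was 4.56 between the WT libraries. This value rises with depth, which was lowest in Ikkb_cKO libraries 1 and 2 and highest in WT. Pairs of unlike depth are therefore not directly comparable by it. The makeup of the class differed too. The 2 clusters led by Col6a5 held 69.6%, 66.9% and 30.8% of Ikkb_cKO fibroblast-like cells in libraries 1, 2 and 3 against 0.167% and 0% in WT, and a Coch-led cluster held 37.9% of those of Ikkb_cKO library 3. The clusters led by Fabp4, Akr1c18 and Crabp1 held 4.72%, 4.26% and 1.03% of Ikkb_cKO and 44.4% and 48.2% of WT fibroblast-like cells. Class levels therefore rest on different clusters in the 2 genotypes, and results that turn on library 3 are given without it.

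Among classes, Ccl2 and Ccl7 were each highest per UMI in mast-like cells and were abundant in fibroblast-like cells, where most of their UMIs lay. A single cluster of another class could lie higher than mast-like cells. The macrophage-like cluster of the myeloid-like class had Ccl7 at 6550 and 7034 CPM in WT, and Ccl2 at 2260 CPM in Ikkb_cKO library 3. In mast-like cells, Ccl2 stood at 10111, 9435 and 2106 CPM in Ikkb_cKO libraries 1, 2 and 3 and at 4713 and 7033 CPM in WT. Ccl7 stood at 9276, 10029 and 5799 CPM there in Ikkb_cKO and at 3451 and 6650 CPM in WT. The genotypes overlapped for both genes, and the class held only 8 to 24 cells in an Ikkb_cKO library and 35 to 40 in a WT library, so mast-like cells were not tested. These few cells nevertheless held 26.4%, 10.7% and 1.83% of all Ccl2 UMIs of the Ikkb_cKO libraries, against 1.55% and 2.11% in WT. Fibroblast-like cells held 70.9% to 81.4% of Ccl2 UMIs in Ikkb_cKO and 83.1% to 83.5% in WT.

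Ccl2 also stood at 123 to 354 CPM in Ikkb_cKO and 1833 to 1912 CPM in WT myeloid-like cells. By their WT levels these were followed by mural-like cells (0 to 377 CPM in Ikkb_cKO, 674 to 855 CPM in WT), Schwann-like cells (0 CPM against 166 to 618 CPM), endothelial-like cells (0 to 179 CPM against 101 to 152 CPM) and muscle-like cells (0 CPM against 0 to 43.7 CPM). Lowest were keratinocyte-like cells (0 to 9.31 CPM against 0 to 12.2 CPM), lymphocyte-like cells (0 to 6.06 CPM against 6.04 to 9.82 CPM) and neutrophil-like cells, which had no Ccl2 UMI. The WT ranges of muscle-like, keratinocyte-like and lymphocyte-like cells overlapped, and Schwann-like cells numbered 1 to 4 in an Ikkb_cKO and 10 to 13 in a WT library. The myeloid-like, mural-like and endothelial-like ranges also overlapped in Ikkb_cKO, where mural-like and endothelial-like cells numbered 3 to 38 a library. Lymphocyte-like cells are not a known source of Ccl2, and 0% to 1.304% of them in Ikkb_cKO and 1.55% to 1.77% in WT had a Ccl2 UMI, at medians of 1729 to 2542 and 2041 to 2302 UMIs per cell. In fibroblast-like cells the shares were 38.5% to 41.6% in Ikkb_cKO and 49.7% to 52.1% in WT, and with every cell thinned to 1000 UMIs they were 34.0% to 38.0% and 40.7% to 42.7%.

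**Figure D1:**
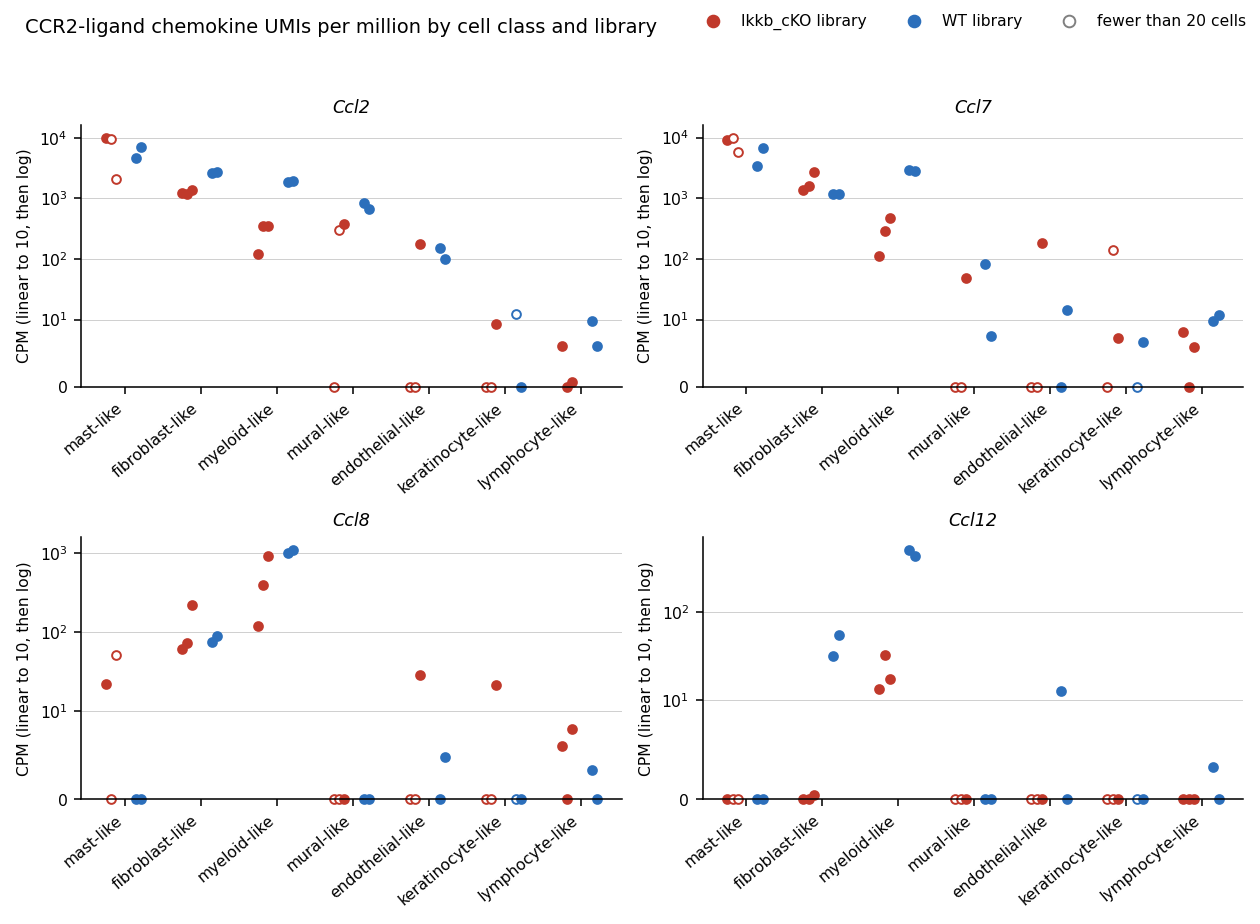
CPM of Ccl2, Ccl7, Ccl8 and Ccl12 (vertical axis, linear to 10 and logarithmic above) in 7 cell classes, with a point per library, Ikkb_cKO left of WT and open points for fewer than 20 cells. Ccl2 and Ccl7 lie highest in mast-like cells, whereas Ccl8 and Ccl12 lie highest in myeloid-like cells, and the Ikkb_cKO points for Ccl12 in fibroblast-like cells lie at 0 to 0.384 CPM.

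Ccl2, the main Ccr2 ligand, was lower in Ikkb_cKO fibroblast-like cells. It stood at 1231, 1169 and 1382 CPM in Ikkb_cKO libraries 1, 2 and 3, against 2628 and 2686 CPM in WT libraries 1 and 2. Every Ikkb_cKO library lay below both WT libraries. On the normalised scale the fold change was -1.11 (log2, SE 0.12) with an adjusted p of 0.00229 in edgeR's quasi-likelihood test, and leaving out any 1 library gave -1.22 to -1.03. Of all genes tested in fibroblast-like cells, 35.3% were called in either direction and 17.9% were called lower and 17.4% higher, so a call in this class is common. Of the 6 genes tested there (all but Ccr2), 3 were called lower (Ccl2, Ccl12 and Cx3cl1) and 1 higher (Cx3cr1).

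In each of the 3 fibroblast-like clusters with enough cells of both genotypes, the difference in Ccl2 missed the threshold. In the cluster led by Thbs4 and Cilp, Ccl2 stood at 747, 928 and 1558 CPM in Ikkb_cKO and at 1246 and 1039 CPM in WT (log2 -0.11, SE 0.27, adjusted p = 0.763 in edgeR). In the Inmt/Igfbp3 cluster it stood at 1189, 1208 and 1765 CPM in Ikkb_cKO and at 1978 and 1666 CPM in WT (log2 -0.47, SE 0.21, adjusted p = 0.103 in edgeR). In the Bpifa2/Smr3a cluster it stood at 259.8, 264 and 1374 CPM in Ikkb_cKO and at 1358 and 1289 CPM in WT (log2 -0.97, SE 0.90, adjusted p = 0.558 in edgeR). The genotypes overlapped in each of these clusters, and in each the highest Ikkb_cKO value was that of library 3. Without it Ccl2 was lower past the threshold in all 3, by log2 values of -0.59, -0.74 and -2.71 (adjusted p = 0.00390, 6.97e-05 and 7.54e-15 in edgeR). With all libraries, the share of all genes called was 39.9% in the Thbs4/Cilp cluster, 29.7% in the Inmt/Igfbp3 cluster and 18.0% in the Bpifa2/Smr3a cluster. Without library 3, the genes called lower were 497 of 6560, 495 of 4925 and 366 of 6549 tested, in the same order. Those called higher were 316, 431 and 92.

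Several other clusters held cells of mainly 1 genotype. The Fabp4/Tagln cluster stood at 683, 1204 and 0 CPM in Ikkb_cKO (19, 15 and 6 cells), against 3516 and 3884 CPM in WT (326 and 372 cells). The Akr1c18/Ifit3 cluster, which also expressed Pi16, had 1 to 5 cells in each Ikkb_cKO library and stood at 3442 and 3087 CPM in WT. In the Col6a5/Mrgprg cluster, which had no WT cell, Ccl2 stood at 1850.0, 1582 and 3621 CPM in Ikkb_cKO libraries 1, 2 and 3. In the Col6a5/Car4 cluster it stood at 709, 655 and 1422 CPM in Ikkb_cKO, and 3 cells of WT library 1 gave 3413 CPM. The Coch/Igfbp2 cluster stood at 140.2, 0 and 950.4 CPM in Ikkb_cKO (9, 12 and 330 cells), against 415 and 281 CPM in WT (45 and 51 cells), and the genotypes overlapped. Between the 2 Col6a5-led clusters, the one with Mrgprg was the higher in each Ikkb_cKO library.

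**Figure D2:**
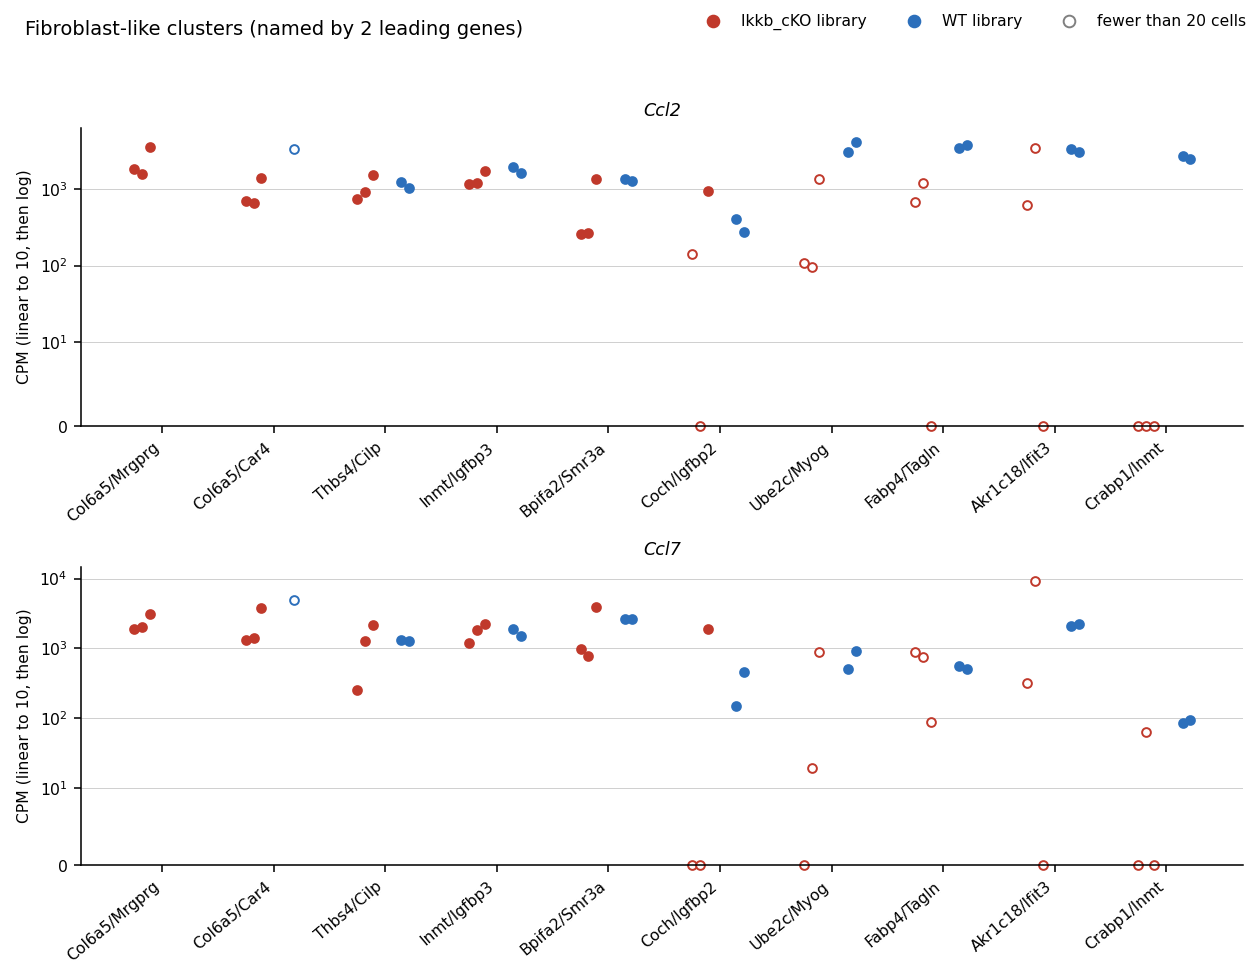
CPM of Ccl2 and Ccl7 (vertical axis, linear to 10 and logarithmic above) in the 10 fibroblast-like clusters, named by 2 leading genes, with a point per library, Ikkb_cKO left of WT, and open points for fewer than 20 cells. In the Thbs4/Cilp, Inmt/Igfbp3 and Bpifa2/Smr3a clusters the genotypes overlap, and library 3 is the highest of the Ikkb_cKO points. For Ccl2 the points of Ikkb_cKO libraries 1 and 2 lie below both WT points in each of these clusters.

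Ccl7, a second Ccr2 ligand, differed from Ccl2 in fibroblast-like cells. It stood at 1358, 1593 and 2708 CPM in Ikkb_cKO, against 1176 and 1158 CPM in WT. All Ikkb_cKO libraries lay above WT, but library 3 lay far above libraries 1 and 2. With all libraries the difference missed the threshold (log2 0.66, SE 0.31, adjusted p = 0.150 in edgeR), and without Ikkb_cKO library 3 it was smaller but passed (log2 0.27, adjusted p = 0.00872 in edgeR). Without that library a call was more common, with 2643 genes higher and 2855 lower of 11731 tested. Within the Thbs4/Cilp, Inmt/Igfbp3 and Bpifa2/Smr3a clusters the log2 values were -0.09, -0.03 and -0.56 (SE 0.74, 0.25 and 0.94), with adjusted p of 0.943, 0.939 and 0.750 in edgeR. In the Bpifa2/Smr3a cluster Ccl7 stood at 987, 771 and 3943 CPM in Ikkb_cKO, against 2654 and 2671 CPM in WT, and without library 3 it was lower (log2 -1.98, adjusted p = 2.58e-15 in edgeR). The Coch/Igfbp2 cluster carried 1870 CPM in the 330 cells of Ikkb_cKO library 3, against 148 and 461 CPM in WT. That value lay below the 2708 CPM of the whole class in library 3. The Col6a5/Car4 cluster stood at 1318 to 3730 CPM in Ikkb_cKO, and 3 WT cells gave 4981 CPM.

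Ccl2 and Ccl7 were often found in the same cells. With each cell thinned to 1000 UMIs, 72.3% of Ikkb_cKO fibroblast-like cells with a Ccl2 UMI also had a Ccl7 UMI, against 34.7% of those without Ccl2. In WT these shares were 43.7% and 22.8%. Ccl2 and Ccl8 showed no such pairing in fibroblast-like cells: Ccl8 was present in 9.47% of Ikkb_cKO cells with Ccl2 and in 9.32% of those without, and in 7.26% and 8.03% of the WT cells.

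Ccl12, a mouse chemokine that acts through Ccr2, was almost absent from Ikkb_cKO fibroblast-like cells. There were 0, 0 and 1 UMIs in Ikkb_cKO libraries 1, 2 and 3 (0, 0 and 0.384 CPM), against 330 and 640 UMIs in WT (31.7 and 54.0 CPM). The summed level was 206-fold higher in WT, with a 95% interval of 37.0 to 8159 that covers counting error only, and edgeR gave an adjusted p of 0.00132. Without Ikkb_cKO library 3 the remaining Ikkb_cKO libraries held no UMI and the edgeR test missed the threshold (adjusted p = 0.270). The WT signal lay in 118 of 3705 cells, and the 5 highest of them held 34.2% of the UMIs. It was concentrated in the Fabp4/Tagln cluster (66.2 and 138 CPM in WT), the cycling Ube2c/Myog cluster (123 and 115 CPM) and the Crabp1/Inmt cluster (22.3 and 28.1 CPM), which together held few Ikkb_cKO cells. In the Fabp4/Tagln cluster 40 Ikkb_cKO cells held 0 UMIs, and a limit of 3 UMIs over the group put WT 6.20-fold higher. That limit takes UMIs as independent and covers counting error only, while few WT cells held much of the signal. In the Thbs4/Cilp, Inmt/Igfbp3 and Bpifa2/Smr3a clusters WT held 0 to 3 UMIs a library. The 10 myeloid marker genes summed to 68.2 CPM in the WT fibroblast-like cells with a Ccl12 UMI and to 58.5 CPM in those without, against 52284 to 53800 CPM in WT myeloid-like cells.

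Ccl8 was found in fibroblast-like cells whatever the genotype. It stood at 61.7, 72.2 and 217 CPM in Ikkb_cKO, against 75.5 and 89.8 CPM in WT. Libraries 1 and 2 of Ikkb_cKO lay below WT and library 3 above it. The difference missed the threshold (log2 0.52, SE 0.58, adjusted p = 0.520 in edgeR) and turned round without library 3 (log2 -0.37, adjusted p = 0.0309 in edgeR). In the Inmt/Igfbp3 cluster the values were 33.5, 30.4 and 150.1 CPM in Ikkb_cKO and 157 and 131 CPM in WT, with the same split between libraries. There the log2 value was -0.90 (SE 0.46, adjusted p = 0.159) with all libraries and -2.28 (adjusted p = 0.000128) without library 3, both in edgeR. In the Bpifa2/Smr3a cluster Ccl8 stood at 25.98, 330.3 and 423 CPM in Ikkb_cKO, against 163 and 194 CPM in WT (log2 0.72, SE 0.44, adjusted p = 0.310 in edgeR). Without Ikkb_cKO library 1 it was higher there (log2 1.06, adjusted p = 0.000872 in edgeR), without library 2 likewise (0.87, adjusted p = 0.0157), and without library 3 it was -0.28 (adjusted p = 0.837).

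In myeloid-like cells the 3 Ccr2 ligands Ccl2, Ccl7 and Ccl12 were all lower in Ikkb_cKO. Ccl2 stood at 123, 354 and 344 CPM in Ikkb_cKO, against 1833 and 1912 CPM in WT (log2 -2.72, SE 0.33, adjusted p = 0.000572 in edgeR). Ccl7 stood at 112, 286 and 473 CPM in Ikkb_cKO, against 2872 and 2858 CPM in WT (log2 -3.21, SE 0.47, adjusted p = 0.00452 in edgeR). Ccl12 stood at 13.6, 32.9 and 17.5 CPM in Ikkb_cKO, against 497 and 423 CPM in WT (log2 -4.49, SE 0.27, adjusted p = 2.70e-05 in edgeR). For each gene every Ikkb_cKO library lay below both WT libraries. In this class 18.1% of all genes tested were called and 9.42% were called lower and 8.73% higher, while 4 of the 6 members tested were called (these 3 and Cx3cr1, all lower). The Ccl7 call was lost without WT library 1 (adjusted p = 0.148) and without WT library 2 (adjusted p = 0.132), with log2 values of -3.25 and -3.24 in edgeR, and with cells thinned to 1000 UMIs (-3.10, adjusted p = 0.0982). Ccl8 stood at 120.0, 394 and 921 CPM in Ikkb_cKO, against 994 and 1093 CPM in WT, and its difference missed the threshold (log2 -1.04, SE 0.76, adjusted p = 0.415 in edgeR).

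**Figure D3:**
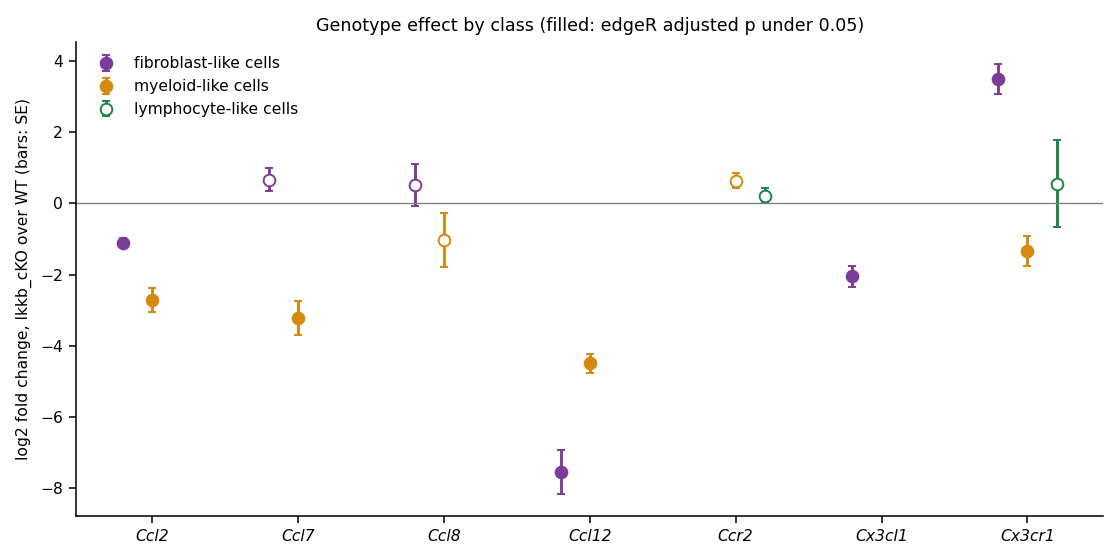
Log2 fold change of Ikkb_cKO over WT with its standard error (vertical axis) for each gene in fibroblast-like, myeloid-like and lymphocyte-like cells, filled where the edgeR adjusted p was under 0.05. Ccl2 and Ccl12 lie below 0 in both fibroblast-like and myeloid-like cells, and Cx3cr1 lies at 3.49 in the first and -1.34 in the second.

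The myeloid-like class also had another makeup in Ikkb_cKO. Macrophage-like cells (led by Folr2, Cd209f and Pf4) were 6.77%, 14.2% and 20.6% of it in Ikkb_cKO libraries 1, 2 and 3, against 53.9% and 51.7% in WT. The Lyz1/Retnla monocyte-like cluster was 44.4%, 53.1% and 43.5% of it in Ikkb_cKO, against 25.1% and 23.4% in WT. The Ly6c2/Hp monocyte-like cluster went the other way, at 2.26%, 4.32% and 3.50% against 4.60% and 5.48%. The dendritic-like cluster was 31.6%, 21.6% and 24.9% against 11.8% and 14.2%, and the cycling Pclaf-led cluster 15.0%, 6.79% and 7.55% against 4.60% and 5.13%. In both genotypes the ligands were highest in macrophage-like cells. Among resident macrophage genes 11 of 12 were lower in myeloid-like cells and none was higher, with a median log2 value of -3.46 against 0.00 for all genes tested. They included Pf4 (log2 -3.99), the complement genes C1qc (-4.26) and C1qb (-3.82), and the growth factor receptor Csf1r (-2.41), each with an adjusted p of 2.70e-05 in edgeR. Among monocyte genes 6 of 13 were higher and none lower, including the lectin Chil3 (log2 3.78, adjusted p = 0.000298) and Fn1 (1.19, adjusted p = 0.00422). The median over these 13 genes was 0.27. The 8 fibroblast marker genes summed to 79.1, 162 and 107 CPM in Ikkb_cKO and to 458 and 522 CPM in WT myeloid-like cells, and their part in the ligand levels was not tested.

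In macrophage-like cells taken alone, Ccl8 was higher in Ikkb_cKO and the other ligands were lower. Ccl8 stood at 4911, 6287 and 12223 CPM in Ikkb_cKO libraries 1, 2 and 3, against 2496 and 2908 CPM in WT, with no overlap. Ccl12 stood at 585, 531 and 238 CPM in Ikkb_cKO, against 1030 and 1103 CPM in WT. Both genes lay apart between the genotypes in opposite directions, in a cluster of 9, 23 and 112 Ikkb_cKO and 434 and 444 WT cells. Ccl2 stood at 585, 1388 and 2260 CPM in Ikkb_cKO and at 3675 and 4228 CPM in WT, and Ccl7 at 935, 2572 and 5457 CPM in Ikkb_cKO and at 6550 and 7034 CPM in WT. For both, each Ikkb_cKO library lay below WT.

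Ikkb_cKO library 1 had fewer than 20 macrophage-like cells and was left out of their test, a comparison added after the data were seen. In it 13.3% of all genes tested were called. Ccl8 was higher by 1.65 on the log2 scale (SE 0.21, adjusted p = 1.60e-12 in edgeR). Ccl12 fell by 2.00 (SE 0.28, adjusted p = 9.32e-11), Ccl2 by 1.17 (SE 0.22, adjusted p = 3.02e-06) and Ccl7 by 0.83 (SE 0.21, adjusted p = 0.00159). The Ccl7 call was lost without WT library 1 (-1.002, adjusted p = 0.0904) and without WT library 2 (-0.88, adjusted p = 0.175). Leaving out a further library gave 0.75 to 2.07 for Ccl8, -2.28 to -1.47 for Ccl12, -1.97 to -0.92 for Ccl2 and -1.86 to -0.43 for Ccl7. Macrophage-like cells had medians of 675 to 1021 UMIs in Ikkb_cKO and 1974 to 2064 UMIs in WT.

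**Figure D4:**
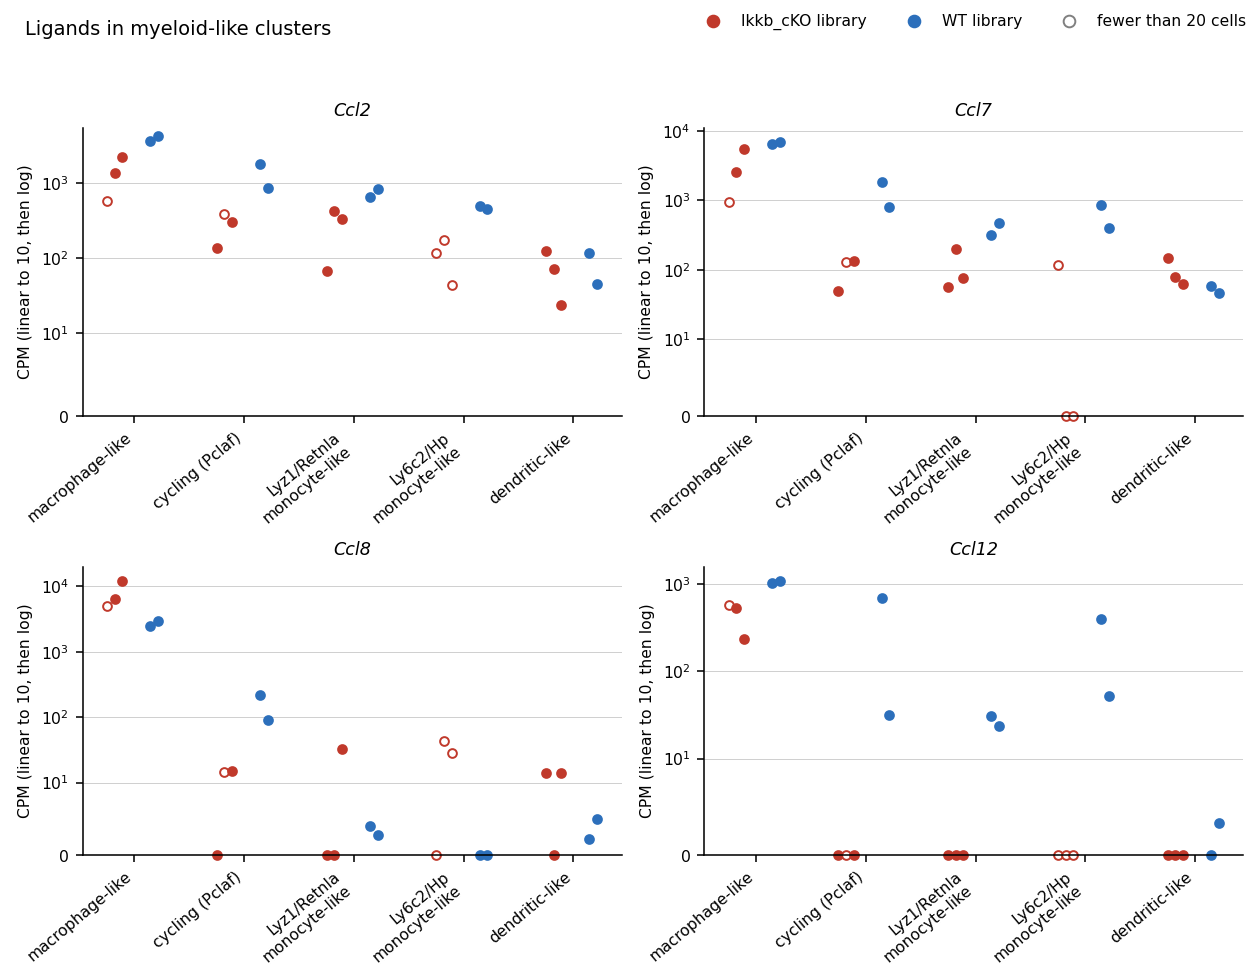
CPM of the 4 ligands (vertical axis, linear to 10 and logarithmic above) in the 5 myeloid-like clusters, with a point per library, Ikkb_cKO left of WT, and open points for fewer than 20 cells. In macrophage-like cells Ccl8 lies at 4911 to 12223 CPM in Ikkb_cKO, above the 2496 and 2908 CPM of WT, while Ccl2, Ccl7 and Ccl12 lie below WT.

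In the other myeloid-like clusters each ligand stood at a lower CPM than in macrophage-like cells of the same library. Ccl12 had no UMI in any of these clusters in Ikkb_cKO. In the Lyz1/Retnla monocyte-like cluster Ccl12 had 0 UMIs in 381 Ikkb_cKO cells, against 23 and 17 UMIs in WT, from 3 cells in each WT library. A limit of 3 UMIs over the group put WT 8.75-fold higher. That limit takes UMIs as independent, which they are not within so few cells, and covers counting error only. The adjusted p was 0.000478 in edgeR, and the call was lost without WT library 1. Ccl7 stood there at 57.1, 201 and 76.9 CPM in Ikkb_cKO, against 321 and 476 CPM in WT (log2 -2.01, SE 0.38, adjusted p = 0.00398 in edgeR, 0.0518 without Ikkb_cKO library 3). Ccl2 stood at 66.6, 428 and 333 CPM in Ikkb_cKO, against 652 and 825 CPM in WT (log2 -1.42, SE 0.57, adjusted p = 0.193 in edgeR). Ccl2 passed the threshold when Ikkb_cKO library 1 or 2 or either WT library was left out, with log2 values of -1.69 to -1.07. In this cluster 14.9% of all genes were called, and in the dendritic-like cluster (led by Cd207, Clec9a and Ccr7) 5.80%. In the dendritic-like cluster none of Ccl2, Ccl7 and Ccr2 was called, with log2 values of -0.54, 0.63 and -0.35 in edgeR (unadjusted p = 0.462, 0.141 and 0.292). Ccl7 stood there at 147, 80.2 and 62.2 CPM in Ikkb_cKO, against 59.2 and 46.8 CPM in WT, with every Ikkb_cKO library above WT. Over the Lyz1/Retnla and dendritic-like clusters Ccl8 stood at 0 to 32.8 CPM in Ikkb_cKO and at 2.19 to 5.02 CPM in WT.

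Ccl12 in WT was not even across libraries outside macrophage-like cells. In the cycling Pclaf-led cluster it had 0 UMIs in 72 Ikkb_cKO cells, against 699 and 31.2 CPM in WT libraries 1 and 2. In the Ly6c2/Hp monocyte-like cluster it had 0 UMIs in 29 Ikkb_cKO cells, against 404 and 51.5 CPM in WT.

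The genotype effect differed between the 2 classes for 3 of the 7 genes. In a fit over both classes with library as a block, the effect in fibroblast-like minus myeloid-like cells was 4.12 for Ccl7 (log2, SE 0.30, adjusted p = 7.26e-05 in edgeR), 1.76 for Ccl8 (SE 0.32, adjusted p = 0.00573) and 4.85 for Cx3cr1 (SE 0.50, adjusted p = 5.87e-06). In this fit 12.0% of all genes were called. Ccl2 gave 1.80 (adjusted p = 0.103), Ccl12 -2.85 (0.0666), Ccr2 1.16 (0.491) and Cx3cl1 -1.70 (0.447), all in edgeR. Ccl2 passed without Ikkb_cKO library 1 (1.41, adjusted p = 4.00e-06) and without library 2 (2.08, adjusted p = 0.0245). Ccl12 passed without WT library 1 (-3.28, adjusted p = 0.0267). With cells thinned to 1000 UMIs the values for Ccl7 (3.87, adjusted p = 0.0891) and Ccl8 (1.22, adjusted p = 0.632) missed the threshold, and with the stricter cell filter that for Ccl8 did (2.17, adjusted p = 0.311).

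Cx3cl1, the membrane-bound chemokine, was scarce. In fibroblast-like cells it had 2, 4 and 10 UMIs in Ikkb_cKO libraries 1, 2 and 3 (1.99, 3.56 and 3.84 CPM), against 145 and 157 UMIs in WT (13.9 and 13.3 CPM). Every Ikkb_cKO library lay below WT. The log2 value was -2.05 (SE 0.30, adjusted p = 0.00394 in edgeR), but the call was lost without WT library 1 (adjusted p = 0.0646) and without WT library 2 (adjusted p = 0.0568). In WT the UMIs lay mostly in the Fabp4/Tagln cluster (26.2 and 22.9 CPM) and the Crabp1/Inmt cluster (37.9 and 33.0 CPM). Within the Fabp4/Tagln cluster the 40 Ikkb_cKO cells gave 29.1, 15.8 and 21.7 CPM, from 4 UMIs in all, and these values overlapped WT. The summed WT level there was 1.09 times that of Ikkb_cKO, with a 95% counting interval of 0.417 to 4.04. Lymphocyte-like cells, which are no known source, had 0 to 3.96 CPM in Ikkb_cKO and 0 CPM in WT, so the Ikkb_cKO fibroblast-like level lay in the range of that background. Endothelial-like cells, a textbook source of Cx3cl1, stood at 0 to 7.14 CPM in Ikkb_cKO and at 12.7 and 57.5 CPM in WT, from 1 UMI in Ikkb_cKO and 2 and 12 UMIs in WT. Keratinocyte-like cells held 21 of the 49 Cx3cl1 UMIs of Ikkb_cKO and 2 UMIs in WT. They stood at 0 to 20.2 CPM in Ikkb_cKO and 6.63 to 12.2 CPM in WT, and the genotypes overlapped. Of these cells 303 lay in Ikkb_cKO library 3, against 8 and 10 in libraries 1 and 2 and 14 and 27 in WT.

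Ccr2, the receptor of Ccl2, Ccl7 and Ccl12, was confined largely to myeloid-like and lymphocyte-like cells. Together they held over 99% of Ccr2 UMIs in every library of both genotypes. Lymphocyte-like cells alone held 56.0%, 48.1% and 44.3% in Ikkb_cKO, against 14.7% and 12.1% in WT. Fibroblast-like cells had 3 Ccr2 UMIs in Ikkb_cKO and 4 in WT, too few to test. In myeloid-like cells Ccr2 stood at 439, 505 and 316 CPM in Ikkb_cKO, against 259 and 284 CPM in WT. All Ikkb_cKO libraries lay above WT, but the difference missed the threshold (log2 0.64, SE 0.21, adjusted p = 0.0588 in edgeR). It passed without Ikkb_cKO library 3 (0.83, adjusted p = 4.08e-05 in edgeR), without doublet removal (0.68, adjusted p = 0.0436) and with thinned cells (0.81, adjusted p = 0.0261).

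Among myeloid-like clusters, Ccr2 was highest in the 2 monocyte-like ones in each library, and in WT it was lowest in macrophage-like cells. The Ly6c2/Hp monocyte-like cluster stood at 713, 909 and 707 CPM in Ikkb_cKO (3, 7 and 19 cells) and at 688 and 727 CPM in WT. The Lyz1/Retnla monocyte-like cluster stood at 819, 791 and 481 CPM in Ikkb_cKO and at 479 and 462 CPM in WT, with libraries 1 and 2 above WT and library 3 next to it. There the log2 value was 0.42 (SE 0.22, adjusted p = 0.206 in edgeR) with all libraries and 0.73 (adjusted p = 0.000481) without library 3. Macrophage-like cells stood at 468, 122 and 115 CPM in Ikkb_cKO, the first from 4 UMIs, and at 63.5 and 93.0 CPM in WT. Without Ikkb_cKO library 1 the log2 value in them was 0.44 (SE 0.43, adjusted p = 0.577 in edgeR).

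In lymphocyte-like cells Ccr2 stood at 422, 425 and 316 CPM in Ikkb_cKO and at 383 and 344 CPM in WT. The genotypes overlapped (log2 0.22, SE 0.21, adjusted p = 0.518 in edgeR), in a class where 10.7% of all genes were called. Its clusters did not move alike. The cluster led by Arg1, Il5 and Il13, genes of type 2 lymphocytes, stood at 337, 328 and 230 CPM in Ikkb_cKO, against 776 and 833 CPM in WT. Every Ikkb_cKO library lay below WT there, and 43.6%, 45.1% and 36.9% of its cells in Ikkb_cKO had a Ccr2 UMI, against 84.6% and 76.9% in WT. With cells thinned to 1000 UMIs these shares were 25.8%, 24.7% and 23.8% in Ikkb_cKO, against 56.0% and 39.1% in WT, and the cluster's medians were 1800 to 2437 and 2186 to 2335 UMIs. Fibroblast-like cells, which lack the gene, gave 0% to 0.344% in Ikkb_cKO and 0.105% to 0.111% in WT. In a test added after the data were seen, the log2 value was -1.29 (SE 0.24, adjusted p = 0.00138 in edgeR, with 10.8% of genes called), and without WT library 2 it was -1.10 (adjusted p = 0.109). This cluster had 26 cells in each WT library, against 140, 102 and 198 in Ikkb_cKO.

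The other lymphocyte-like clusters had fewer than 20 cells in some library and were not tested. The Gzma/Tyrobp cluster stood at 877, 702 and 663 CPM in Ikkb_cKO and at 605 and 374 CPM in WT. The Gzmc/Xcl1 cluster stood at 267, 513 and 209.9 CPM in Ikkb_cKO and at 147 and 142 CPM in WT. In both, as in the Il1rl1/Foxp3 cluster (538, 349 and 568 CPM in Ikkb_cKO against 318 and 192 CPM in WT), each Ikkb_cKO library lay above WT. Counts were small: the Il1rl1/Foxp3 values came from 11, 18 and 53 UMIs in Ikkb_cKO and 4 and 3 UMIs in WT, with 7 and 9 WT cells. The 513 CPM of the Gzmc/Xcl1 cluster came from 14 UMIs in 14 cells. In the Il17a/Cd163l1 cluster Ccr2 stood at 88.8, 131 and 466 CPM in Ikkb_cKO (6, 5 and 69 cells), against 426 and 374 CPM in WT (14 and 11 cells). There libraries 1 and 2 of Ikkb_cKO lay below WT and library 3 above it.

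**Figure D5:**
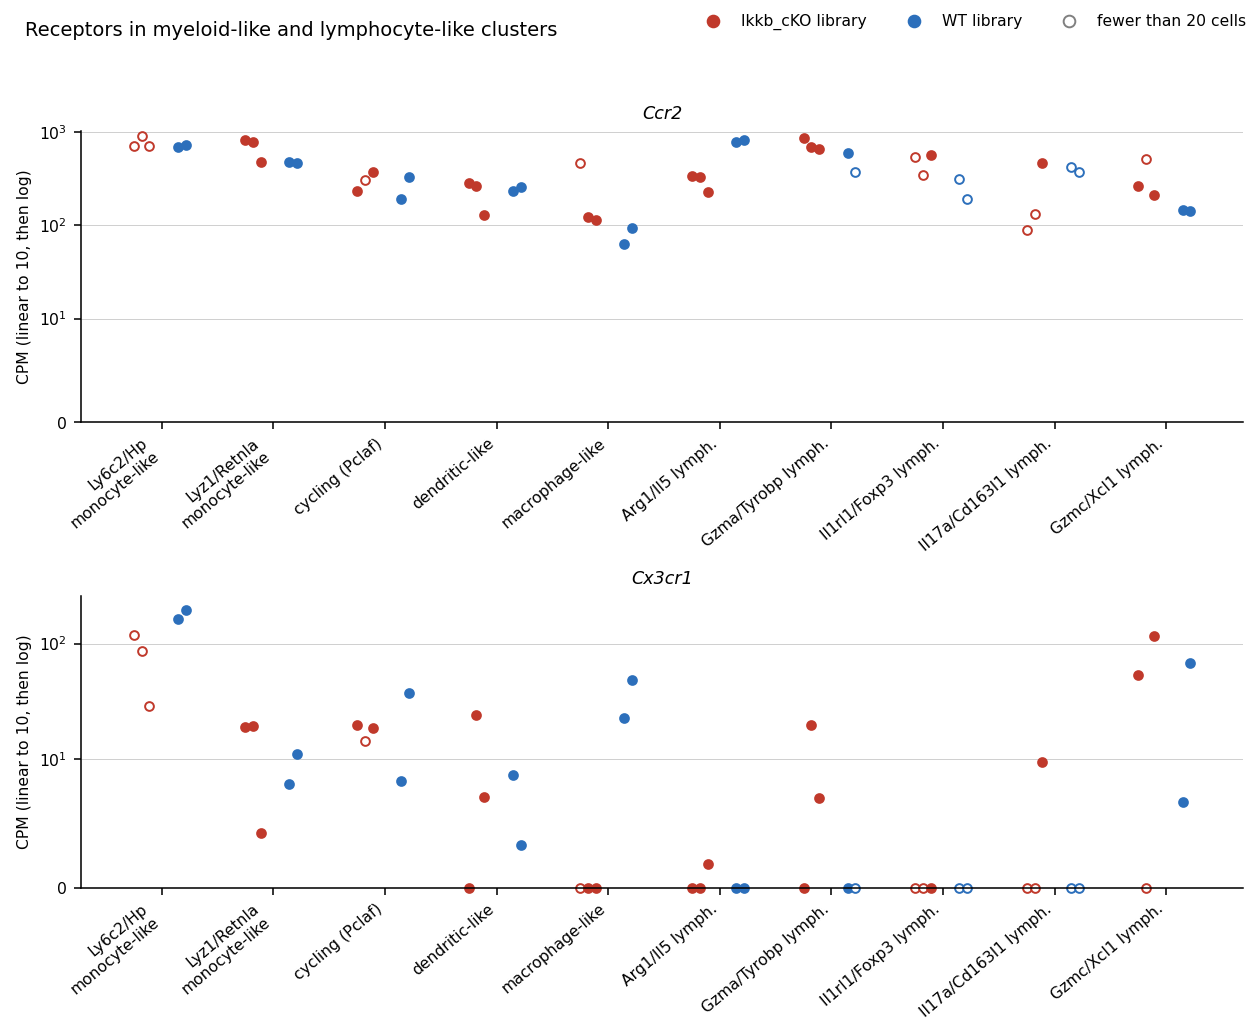
CPM of Ccr2 and Cx3cr1 (vertical axis, linear to 10 and logarithmic above) in the myeloid-like and lymphocyte-like (lymph.) clusters, with a point per library, Ikkb_cKO left of WT, and open points for fewer than 20 cells. In the Arg1/Il5 cluster Ccr2 lies at 230 to 337 CPM in Ikkb_cKO and at 776 and 833 CPM in WT, and in macrophage-like cells Cx3cr1 lies at 0 CPM in Ikkb_cKO.

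Cx3cr1, the receptor of Cx3cl1, was low in every class. In myeloid-like cells it stood at 13.6, 22.7 and 7.95 CPM in Ikkb_cKO and at 22.4 and 37.3 CPM in WT. Ikkb_cKO library 2 overlapped WT on this scale. The log2 value of -1.34 (SE 0.41, adjusted p = 0.0451 in edgeR) lay just past the threshold, and leaving out any library other than Ikkb_cKO library 2 ended the call, with log2 values of -1.56 to -0.68 and adjusted p of 0.0598 to 0.506. DESeq2 gave -1.15 (adjusted p = 0.317). The Ly6c2/Hp monocyte-like cluster was the highest, at 119, 86.6 and 28.9 CPM in Ikkb_cKO, from 5 UMIs in 29 cells, and at 163 and 195 CPM in WT. Macrophage-like cells had 0 UMIs in 144 Ikkb_cKO cells, against 23 and 52 UMIs from 14 and 29 cells in WT (22.8 and 48.3 CPM). A limit of 3 UMIs over the group put WT 2.06-fold higher, which covers counting error only. The edgeR test of this cluster without Ikkb_cKO library 1 gave an adjusted p of 0.0225 and without library 3 as well 0.590.

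In fibroblast-like cells Cx3cr1 was higher in Ikkb_cKO. It had 7, 14 and 21 UMIs in Ikkb_cKO (6.96, 12.5 and 8.05 CPM), against 6 and 11 UMIs in WT (0.577 and 0.928 CPM), with no overlap. The log2 value was 3.49 (SE 0.42, adjusted p = 0.00255 in edgeR, 0.0517 without WT library 1). These UMIs came from 12 Ikkb_cKO and 8 WT cells, and the 5 highest cells held 71.4% and 82.4% of them. Most lay in the Col6a5-led clusters and the Bpifa2/Smr3a cluster, which held 26 and 15 of the 42 Ikkb_cKO UMIs. The 10 myeloid markers summed to 23.9 CPM in the Ikkb_cKO cells with a Cx3cr1 UMI and to 47.9 CPM in those without, and to 29.8 CPM and 59.3 CPM in the WT cells. Over whole libraries they summed to 38.3 to 51.7 CPM in Ikkb_cKO and 45.6 to 71.1 CPM in WT fibroblast-like cells, and of the 10 markers Tyrobp and C1qb had no UMI in Ikkb_cKO library 1, and C1qb, C1qc and Ctss none in library 2. With 42 UMIs in 12 cells, the measure rests on few cells.

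Among lymphocyte-like cells Cx3cr1 lay mainly in the cytotoxic Gzmc/Xcl1 cluster, at 53.4, 0 and 117 CPM in Ikkb_cKO and at 6.70 and 67.4 CPM in WT. Over the class it stood at 6.06, 4.57 and 44.3 CPM in Ikkb_cKO and at 3.27 and 30.2 CPM in WT, with overlap and a wide spread within each genotype (log2 0.55, SE 1.22, adjusted p = 0.810 in edgeR). In mast-like cells Ikkb_cKO library 1 had 10 UMIs in 4 cells, and the other 4 libraries had 0.

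Other genes of the pathway were counted from lists. In fibroblast-like cells, 9 of 32 inducers of Ccl2 and their relays were higher and 4 lower (median log2 0.22, against 0.04 for all genes tested), in a class where 17.4% of all genes were called higher and 17.9% lower. The 4 with the smallest p were Irf1, a factor induced by interferons (log2 -1.63, SE 0.13, adjusted p = 0.00132), the receptors Il6ra (2.16, SE 0.22, adjusted p = 0.00209) and Il6st (1.10, SE 0.13, adjusted p = 0.00242) of interleukin 6, and the TNF receptor Tnfrsf1b (2.02, SE 0.23, adjusted p = 0.00231), all in edgeR. Of 8 tested other ligands and growth factors of myeloid cells, 2 were lower: Il34, a ligand of Csf1r (log2 -4.13, adjusted p = 0.00123), and Cxcl1, a neutrophil chemokine (-0.62, adjusted p = 0.0417). Adam17, a protease that sheds Cx3cl1, was higher (0.97, adjusted p = 0.00738). Of 5 monocyte genes tested, only Fn1, which encodes fibronectin and is also a fibroblast gene, was called, higher (log2 1.16, adjusted p = 0.0257). Of 2 resident macrophage genes tested, C1qb was lower at 0 to 1.17 normalised CPM in Ikkb_cKO and 4.14 to 4.98 in WT. None of the 2 tested neighbours in the chemokine clusters and none of the 2 tested receptors and scavengers was called by edgeR in these cells.

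In myeloid-like cells 3 of 31 inducers and relays were higher and 5 lower (median log2 0.04, against 0.00 for all genes tested), in a class where 8.73% of all genes were called higher and 9.42% lower. They included Jun, an immediate early factor (log2 -2.12, SE 0.23, adjusted p = 0.000216), Cebpb, a factor of myeloid differentiation (1.58, SE 0.22, adjusted p = 0.00100), the kinase gene Chuk (1.56, adjusted p = 0.00594) and the interferon receptor Ifnar2 (-0.99, adjusted p = 0.00869), all in edgeR. Among 8 other ligands 1 was higher and 4 lower, with Mif at 1.20 (adjusted p = 0.00228), and the neutrophil chemokines Cxcl1 at -1.99 (adjusted p = 0.000758) and Cxcl2 at -1.54 (adjusted p = 0.00120). Of 2 tested other receptors and scavengers of these ligands, 1 was higher and 1 lower, the lower being the chemokine receptor gene Ccr1 (log2 -0.999, adjusted p = 0.0195 in edgeR). Ccl6 was the 1 gene called among 5 tested neighbours (-0.99, adjusted p = 0.00397). None of the 3 genes of Cx3cl1 shedding was called in edgeR.

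The genes whose levels were most alike over 29 sums of a class in a library were ranked by Pearson's r of log2(CPM + 10), among 10662 genes. These sums share libraries and depth, so r is a description. Ccr2 had the closest neighbours, the leukocyte surface gene Cd52 (r = 0.993), Bcl2a1b (0.987) and Itgb2 (0.986). Ccl12 was nearest to the macrophage genes Cd209f (0.909), Fcna, Ms4a7 and Fcgr1, and Ccl8 to the receptor gene Tlr2 (0.930), Rab7b, B4galt6 and Pid1. Ccl7 was nearest to Emilin2 (0.929), P2rx4, Vwa5a and Mitf, and Ccl2 to Pmp22 (0.913), Tubb6, Cd63 and Psd3. The scarce Cx3cl1 and Cx3cr1 reached 0.831 (Slco2a1) and 0.779 (Slc25a37) at most.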

How the data were processed

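Per the labels' protocols, cells of ventral skin went into 10x libraries of the 3′ v2 kind. The deposited matrices hold UMI counts per gene and barcode, whole numbers, already called as cells. Cell Ranger 1.3.0 and mm10 are named in the submitters' processing notes, whereas the file headers give software version 3.0.1. How introns and multimapping reads were handled is not stated.

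Barcodes with fewer than 300 genes or over 10% mitochondrial UMIs were dropped. Doublet scores came from Scrublet in scanpy 1.11.5. Its automatic threshold marked 26 cells (0.245%), so the expected share per library (0.008 per 1000 cells) with the highest scores was removed instead, 221 cells (2.08%). Counts were scaled to 10000 per cell and logged, and 2000 variable genes without the 7 members, 30 components, 15 neighbours and Leiden resolution 1.0 gave 30 clusters. A class name needed 3 markers among a cluster's top 50 genes, ranked by fold over the other clusters' median, and 2 more than any other class had, and 77 cells in 2 clusters stayed unnamed. Names are rebuilt from RNA alone.

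UMIs were summed per library and class or cluster, and those with 20 cells in every library were tested with edgeR 4.0.16 (filterByExpr, TMM, robust quasi-likelihood test, Benjamini-Hochberg adjustment over all genes tested, threshold 0.05). Levels are plain CPM, and fold changes and genes outside the 7 are on the normalised scale. The difference between classes was tested with library as a block. Counting intervals are exact conditional Poisson intervals at 95%, and the limit for a count of 0 is 3 UMIs. Both take UMIs as independent and cover counting error only, not the spread between cells or libraries. Alternatives were leaving out each library, DESeq2 1.42.0, its size factors, other low-count, cell and doublet filters, resolutions 0.5 and 2.0, the 7 genes among the variable genes, cells thinned to 1000 UMIs, and a replicate block. The members and lists were chosen with earlier results of these data known. The rule for naming was to give all 7 genes everywhere, the 4 genes most like each, and up to 4 genes per list and class with the smallest p past the threshold, of which some are not reported here. The TATAAA search was added after the promoters were seen.

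On simulated data with known changes the test found 17.9%, 82.1% and 97.0% of 2-, 4- and 8-fold changes in fibroblast-like cells, with 16 false among 147 calls, and 26.9%, 82.1% and 100% in myeloid-like cells, with 7 false among 146. The real data gave 3721 and 1624 calls in these classes. The adjusted threshold depends on the number of changed genes, so the simulated shares may not hold for the real data.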

Additional observations from a re-analysis of the deposited data

Results flagged for a closer look

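For 3 genes the test of the difference itself found another genotype effect in fibroblast-like than in myeloid-like cells, given as fibroblast-like minus myeloid-like log2 values. Cx3cr1 gave 4.85 (adjusted p = 5.87e-06 in edgeR), being higher in Ikkb_cKO than in WT in all 3 libraries of fibroblast-like cells. The fibroblast-like side rests on 42 UMIs in 12 Ikkb_cKO cells, with 71.4% of them in the 5 highest cells. The call of lower Cx3cr1 in myeloid-like cells was lost in 9 of 17 alternatives and kept in 8. Ccl7 gave 4.12 (adjusted p = 7.26e-05 in edgeR), being above WT in 3 of 3 Ikkb_cKO libraries in fibroblast-like cells and below it in 3 of 3 in myeloid-like cells. Ccl8 gave 1.76 (adjusted p = 0.00573 in edgeR), though within fibroblast-like cells only 1 of 3 Ikkb_cKO libraries lay above both WT libraries and in myeloid-like cells 3 of 3 lay below. The makeup of both classes moved with genotype, and its part in these differences was not tested.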

How the results depend on the processing

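For the 21 results on a member in a class or in the difference between classes, 333 values under alternatives were computed: 293 kept direction and side of the threshold, 19 kept direction but missed it, 15 newly passed it and 6 turned round. The cause was not tested except where fewer libraries or cells show it. With 3 Ikkb_cKO against 2 WT libraries, the test on simulated data found 17.9% of 2-fold changes in fibroblast-like and 26.9% in myeloid-like cells. In such data a change of that size was often missed. The simulated data held far fewer changed genes than were called in the real data, so these shares may not hold for the latter.

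Leaving out 1 library at a time gave, for fibroblast-like cells, log2 ranges of 0.27 to 0.87 for Ccl7, -0.37 to 0.83 for Ccl8, -11.05 to -7.09 for Ccl12, -2.33 to -1.86 for Cx3cl1 and 3.21 to 3.85 for Cx3cr1. For myeloid-like cells they were -3.80 to -2.85 for Ccl7, -1.97 to -0.60 for Ccl8, 0.49 to 0.83 for Ccr2 and -1.70 to -0.68 for Cx3cr1, and for lymphocyte-like Cx3cr1 -0.30 to 2.83. For the difference between classes they were 1.41 to 2.08 for Ccl2, -5.93 to -2.25 for Ccl12, -3.36 to 1.70 for Ccr2, -3.38 to 3.09 for Cx3cl1, 3.83 to 4.28 for Ccl7 and 1.47 to 2.01 for Ccl8. Within clusters they were -0.85 to 0.24 for Ccl7 in Thbs4/Cilp, -0.31 to 0.17 for Ccl7 in Inmt/Igfbp3, also 0.09, -0.28 to 1.06 for Ccl8 in Bpifa2/Smr3a, and -0.55 to 0.10 for Ccr2 and -1.25 to 0.32 for Ccl2, also 0.31, in dendritic-like cells.

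Libraries 1 and 2 of the genotypes share only a number: the correlation of their deviations was -0.0103 in fibroblast-like and -0.0851 in myeloid-like cells. The replicate block, which drops Ikkb_cKO library 3, gave for fibroblast-like cells 0.27 for Ccl7 (newly called) and -0.38 for Ccl8 (turned round), and for myeloid-like cells -0.68 for Cx3cr1 (call lost), 0.83 for Ccr2 and -2.08 for Ccl8 (newly called). It gave -0.33 for Ccl8 in Bpifa2/Smr3a, and 0.11 for Ccr2 and 0.25 for Ccl2 in dendritic-like cells.

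Cells thinned to 1000 UMIs ended the calls of myeloid-like Ccl7 (-3.10) and Cx3cr1 (-0.76) and of the class difference in Ccl7 (3.87) and Ccl8 (1.22), made that of myeloid-like Ccr2 (0.81) and turned the class difference in Ccr2 to -2.05. DESeq2 ended myeloid-like Cx3cr1 (-1.15). The stricter cell filter ended myeloid-like Cx3cr1 (-1.26) and the class difference in Ccl8 (2.17) and made that in Ccl2 (2.08). No doublet removal ended myeloid-like Cx3cr1 (-1.24) and made Ccr2 (0.68). The class difference in Ccl2 passed with DESeq2's size factors (1.71) and a minimum count of 30 (1.74). Without a low-count filter myeloid-like Ccl8 (-1.09) and the class difference in Ccl12 (-2.88) passed.

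Counts of all genes called higher and lower were 1833 and 1888 in fibroblast-like, 781 and 843 in myeloid-like, 347 and 218 in lymphocyte-like cells and 870 and 503 in the class difference. Thinning gave 909 and 1028, 449 and 428, 165 and 76, and 349 and 228. The replicate block gave 2863 lower in fibroblast-like and 697 and 539 in lymphocyte-like cells. DESeq2 gave 419 and 391 in myeloid-like and 212 and 98 in lymphocyte-like cells, and no filter 542 higher in the last. Leaving out 1 library gave 170 to 2643 and 297 to 2855, 177 to 928 and 254 to 896, 48 to 641 and 23 to 503, and 311 to 1072 and 125 to 626.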
